A study of Arabidopsis thaliana with 30 samples.

Results

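The phytochrome-interacting factors (PIFs) and their close relatives were followed through 2 experiments on Arabidopsis thaliana seedlings of the Col-0 ecotype. They were 9 genes chosen as family members by locus, PIF1 (AT2G20180), PIF3 (AT1G09530), PIF4 (AT2G43010), PIF5 (AT3G59060), PIF6 (AT3G62090), PIF7 (AT5G61270), PIF8 (AT4G00050), HFR1 (AT1G02340) and PIL1 (AT2G46970), out of 33602 genes listed. RNA-seq of seedlings was done in 10 groups of 3 libraries, from wild type and from bdr1,2,3, a triple mutant with T-DNA insertions in the BORDER genes BDR1, BDR2 and BDR3. In the photomorphogenesis experiment (18 libraries) the labels give 5 days of growth in the dark at 21 °C. Seedlings then stayed in the dark or received white light for 2 h or 4 h, a treatment that the study places within day 5. The heat shock experiment (12 libraries) used seedlings that grew for 12 days at 12 °C under long days and then stayed at 12 °C or were moved to 27 °C for 4 h. The BDR proteins are putative negative elongation factors for RNA polymerase II, and the study used light as a means to change the expression of many genes.

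PIFs are basic helix-loop-helix (bHLH) transcription factors that bind the G-box and the related PBE-box in promoters. In darkness several of them accumulate, promote hypocotyl elongation and hold back chlorophyll synthesis and photosynthesis genes. Light converts phytochromes to their active form, which enters the nucleus, binds PIFs and leads to the phosphorylation and degradation of several, though not all, of them. PIF1 restrains seed germination and chlorophyll synthesis, and PIF3 was the founding member of the family. PIF4 and PIF5 drive elongation in shade and, for PIF4 above all, in warmth, and PIF7 acts in shade and warmth. PIF6 and PIF8 are less well studied. HFR1 and PIL1 are related bHLH proteins that pair with PIFs and hold back their activity. The values below are transcript levels, and PIF protein was not measured.

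Library totals were between 7517174 and 22888978 counts in the photomorphogenesis experiment and between 6823975 and 22458726 counts in the heat shock experiment. BDR1 was at 1.66 to 3.65 CPM (counts per 1000000 counts of the library, after TMM scaling) in the mutant libraries and at 51.7 to 112 CPM in the wild type. BDR2 was lower in the mutant in all 5 conditions, by at least 0.53 on the log2 scale, whereas BDR3 did not pass the test at 12 °C (log2 fold change -0.06, adjusted p = 0.857, edgeR quasi-likelihood test). Leaf and cotyledon markers (RBCS1A and LHCB1.1) summed to 843 to 14088 CPM, the epidermal marker ATML1 was at 102.5 to 162.9 CPM, 5 root and root hair markers summed to 2.36 to 33.2 CPM, and the flower markers AP3 and AG summed to at most 0.22 CPM. The root markers were thus scarce in libraries labelled as seedlings. In bulk seedlings, fewer cells of a type and less RNA per cell cannot be told apart.

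All 9 genes matched the RefSeq annotation of TAIR10.1 by locus, where PIF1, PIF5, PIF6 and PIF8 carry the symbols PIL5, PIL6, PIL2 and UNE10. PIF1 (chr2:8704024-8707009, minus strand), PIF4 (chr2:17886101-17889087, plus) and PIL1 (chr2:19295431-19297858, minus) lie on chromosome 2. PIF3 (chr1:3075768-3079654, plus) and HFR1 (chr1:465616-467880, minus) lie on chromosome 1, PIF5 (chr3:21827905-21830837, minus) and PIF6 (chr3:22988547-22990709, minus) on chromosome 3, PIF8 (chr4:17639-20183, plus) on chromosome 4 and PIF7 (chr5:24638491-24640765, minus) on chromosome 5. The nearest protein-coding gene upstream was 1526 bp (PIF5) to 4976 bp (PIF6) away, with a median of 2790 bp, against a median of 945 bp over 27439 genes. A distance of 1526 bp or more was found for 36.8% of those genes. PIF1, PIF6 and PIF7 each overlap a protein-coding gene on the opposite strand, by 334, 231 and 318 bp, and PIF6 also lies under a long non-coding RNA, AT3G09745, that covers 96.3% of it. Whether the counting used strand was not given in the sources used here, so reads from these partners cannot be told apart from those of the PIF genes. AT2G20170, the protein-coding gene that overlaps PIF1, averaged at most 0.0216 CPM in any group. AT3G09745 was not among the genes listed in the counts, so its level is not known.

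Promoters were searched for the motifs that PIF proteins bind, in the 250 bases before and 50 bases after each gene start of TAIR10.1. The G-box (CACGTG, its own reverse complement) was present in 7.68% of 27443 such windows, and the PBE-box (CATGTG, or CACATG on the other strand) in 12.9%. Among the 9 genes, 1 G-box was found, in PIF5, and 2 overlapping PBE-boxes, in PIF7. The sequences are shown because they are the matches among genes that rose in light. Capitals mark the motif, the stretch of PIF5 covers its 250 bases before the start (chr3:21830838-21831087, minus strand), and that of PIF7 covers bases 9 to 38 after the start (chr5:24640728-24640757, minus strand).
PIF5: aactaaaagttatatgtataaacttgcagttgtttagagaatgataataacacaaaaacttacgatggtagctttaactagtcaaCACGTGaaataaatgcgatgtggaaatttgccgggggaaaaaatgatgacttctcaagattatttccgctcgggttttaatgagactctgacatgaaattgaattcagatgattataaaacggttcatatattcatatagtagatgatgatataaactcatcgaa
PIF7: atcctttgccaCACATGTGcttcgtccaca
The G-box of PIF5 began at base -165 from the start, and the PBE-boxes of PIF7 began at bases 20 and 22. The windows of the other 7 genes held neither motif, which says only that these letters do not occur there.

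Levels were compared between genes as CPM per kilobase of exon (CPM per kb). HFR1 was the most abundant of the 9 transcripts in the dark and in light, at 208.8 ± 9.31 CPM per kb (SD, n = 3) in dark-grown wild type. PIL1 followed at 26.4 ± 1.66, then PIF3 at 20.7 ± 0.284, PIF4 at 14.9 ± 1.40, PIF5 at 12.7 ± 0.974, PIF1 at 12.3 ± 0.414, PIF6 at 7.41 ± 0.325, PIF8 at 1.19 ± 0.278 and PIF7 at 0.210 ± 0.226 CPM per kb. In this order the libraries of PIF4 and PIF5, and those of PIF5 and PIF1, overlapped, and the other neighbours did not. After 4 h of light the wild-type order was HFR1 (197.1 ± 13.5), PIF4 (47.9 ± 2.61), PIF5 (41.3 ± 1.68), PIF1 (18.5 ± 0.380), PIF8 (17.7 ± 1.37), PIF7 (9.27 ± 0.637), PIF3 (9.03 ± 0.753), PIF6 (1.17 ± 0.117) and PIL1 (0.187 ± 0.0676 CPM per kb). Here PIF1 overlapped PIF8, and PIF7 overlapped PIF3. PIL1 thus stood second in the dark and last in light, while PIF7 and PIF8 left the bottom of the order.

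In the light-grown seedlings of the heat shock experiment HFR1 was no longer dominant. At 12 °C the wild-type levels were 36.6 ± 2.56 for PIF7, 33.4 ± 4.10 for PIF5, 24.5 ± 2.18 for PIF4, 9.24 ± 0.823 for PIF8, 8.69 ± 0.544 for PIF1, 7.41 ± 1.46 for HFR1, 7.39 ± 1.13 for PIF3, 1.37 ± 0.363 for PIF6 and 0.121 ± 0.109 CPM per kb for PIL1. PIF7 overlapped PIF5, and PIF8, PIF1, HFR1 and PIF3 overlapped their neighbours in turn. HFR1 made up 68.5% ± 0.855 of the summed CPM per kb of the 9 genes in dark-grown wild type, 57.6% ± 0.933 after 4 h of light and 5.78% ± 1.29 at 12 °C. PIF7, PIF5 and PIF4 made up 28.5% ± 2.70, 25.9% ± 2.64 and 19.0% ± 1.18 at 12 °C. The experiments differed in age, temperature and light regime and were normalized separately, so their levels are set side by side without a test.

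**Figure D1:**
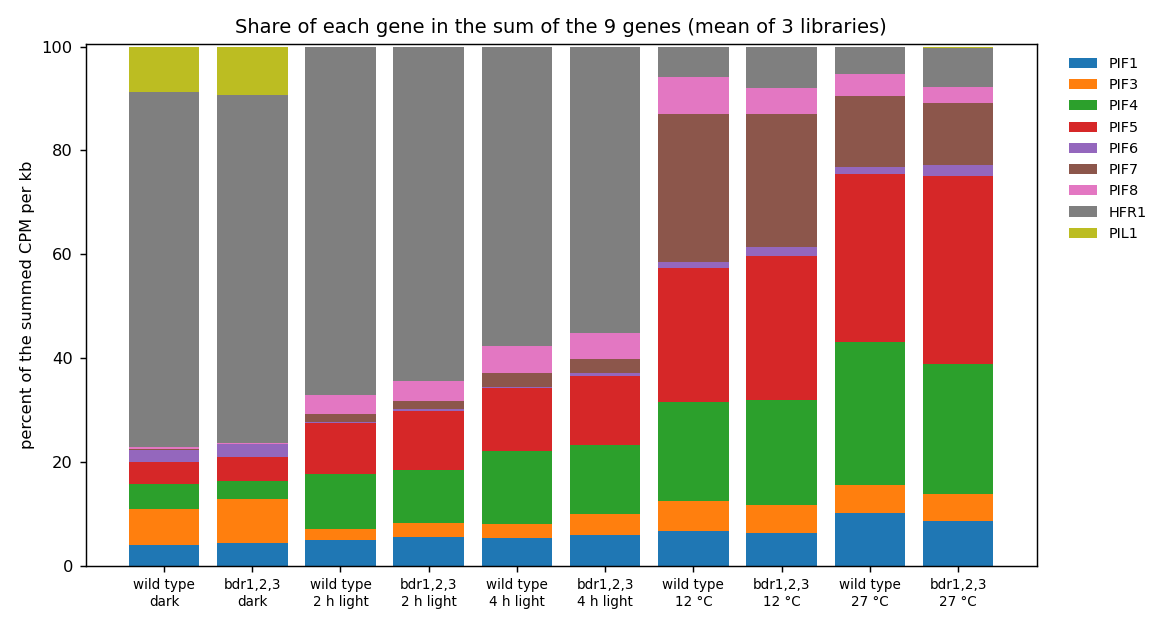
Share of each gene in the summed CPM per kb of the 9 genes (vertical axis, percent, mean of 3 libraries), with 1 bar for each of the 10 groups. HFR1 fills most of the bar in dark-grown seedlings and after 2 h and 4 h of light (68.5%, 67.0% and 57.6% in wild type), PIL1 is clearly visible in the dark groups alone, and PIF4, PIF5 and PIF7 fill most of the bars at 12 °C.

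Light changed the transcript level of all 9 genes within 2 h. In wild type all 9 genes passed the test (edgeR quasi-likelihood, adjusted p under 0.05), with 6 higher and 3 lower, where 33.9% of the 19521 genes tested were higher and 32.9% lower. PIF7, PIF8, PIF5, PIF4, PIF1 and HFR1 rose, and PIL1, PIF6 and PIF3 fell. At 4 h 8 of 9 passed, 5 higher and 3 lower, and HFR1 did not (35.2% of genes higher and 34.9% lower). The median log2 fold change of the 9 genes at 2 h was 0.77, against 0.01 over all genes tested.

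PIF7 and PIF8 had the lowest dark levels and rose most, and PIF7 started close to the detection limit. PIF7, which acts in shade and warmth, was at 0.132, 0.180 and 0.918 CPM in the dark wild-type libraries (1, 2 and 11 counts), at 12.3, 12.0 and 10.9 CPM after 2 h and at 19.5, 17.3 and 17.5 CPM after 4 h. Every light library was far above every dark one, and the dark level rested mostly on replicate 3. Pooled over libraries, PIF7 was 25.7-fold higher at 2 h (95% counting interval 15.2 to 47.5) and 39.8-fold higher at 4 h (23.6 to 73.3), intervals that cover counting error alone. The adjusted p were 3.41e-14 and 9.44e-16. Its opposite-strand neighbour AT5G61260 was at 11.3 ± 0.799 CPM in the dark, where PIF7 was near 0, and at 12.7 ± 1.37 CPM after 2 h. PIF8 was at 2.37, 2.70 and 1.67 CPM in the dark, at 30.9, 27.4 and 28.6 CPM after 2 h and at 30.3, 34.8 and 34.8 CPM after 4 h. Its groups did not overlap, and the log2 fold changes were 3.70 ± 0.142 (SE, adjusted p = 4.73e-17) and 3.90 ± 0.140 (adjusted p = 1.31e-17).

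PIF4 and PIF5, which promote elongation, both rose. PIF4 was at 37.9, 35.6 and 42.7 CPM in the dark, at 101.0, 121.6 and 115.4 CPM after 2 h and at 119.4, 122.0 and 132.2 CPM after 4 h. PIF5 was at 35.4, 31.0 and 31.2 CPM in the dark, at 93.9, 107.9 and 115.9 CPM after 2 h and at 101.7, 110.3 and 105.6 CPM after 4 h. For both genes each light library exceeded each dark library. The log2 fold changes at 2 h were 1.54 ± 0.0802 for PIF4 (adjusted p = 1.75e-14) and 1.71 ± 0.0828 for PIF5 (adjusted p = 4.17e-15). At 4 h they were 1.68 ± 0.0801 and 1.71 ± 0.0828.

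PIF1, the repressor of germination and chlorophyll synthesis, changed less. It was at 28.0, 29.8 and 28.3 CPM in the dark, at 47.3, 49.9 and 50.4 CPM after 2 h and at 42.6, 44.3 and 43.0 CPM after 4 h. The log2 fold changes were 0.77 ± 0.0778 (adjusted p = 3.85e-09) and 0.59 ± 0.0783 (adjusted p = 3.6e-07), with no overlap between dark and light. PIF3 fell, from 56.5, 58.1 and 57.2 CPM in the dark to 24.9, 24.1 and 23.4 CPM at 2 h and 22.9, 27.1 and 24.9 CPM at 4 h. Its log2 fold changes were -1.25 ± 0.0766 (adjusted p = 3.95e-13) and -1.20 ± 0.0762 (adjusted p = 6.64e-13). PIF1 and PIF3, whose proteins both act against chlorophyll synthesis in the dark, therefore moved in opposite directions at the transcript level.

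PIF6 and PIL1 were dark transcripts. PIF6 was at 13.4, 12.8 and 13.9 CPM in the dark, at 1.74, 1.83 and 1.38 CPM after 2 h and at 2.28, 1.88 and 2.19 CPM after 4 h, with log2 fold changes of -3.01 ± 0.167 (adjusted p = 5.28e-14) and -2.65 ± 0.159 (adjusted p = 2.29e-13). AT3G62080, the protein-coding gene that overlaps PIF6, also fell at 2 h, by 0.83 ± 0.0890 on the log2 scale (adjusted p = 1.17e-08), and its part in the PIF6 value was not tested. PIL1, a partner of PIFs that is induced by shade, was at 43.5, 48.8 and 44.4 CPM in the dark and at 0.414, 0.333 and 0.777 CPM after 2 h (5, 4 and 9 counts). At 4 h PIL1 was at 0.456, 0.256 and 0.253 CPM (6, 3 and 3 counts). Its dark level was 90.7-fold above that at 2 h (95% counting interval 57.2 to 154) and 140-fold above that at 4 h (79.9 to 272).

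HFR1 rose and returned. It was at 307.5, 311.8 and 333.9 CPM in the dark, at 426.9, 408.0 and 437.3 CPM after 2 h and at 277.3, 305.3 and 317.4 CPM after 4 h. The log2 fold change at 2 h was 0.42 ± 0.0743 (adjusted p = 2.73e-05), and at 4 h it was -0.08 ± 0.0745 (adjusted p = 0.324), where dark and light libraries overlapped. HFR1 and PIL1, the relatives that restrain PIF proteins, thus changed in opposite directions at 2 h, since PIL1 changed by -6.47 ± 0.166 (adjusted p = 2.51e-20).

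**Figure D2:**
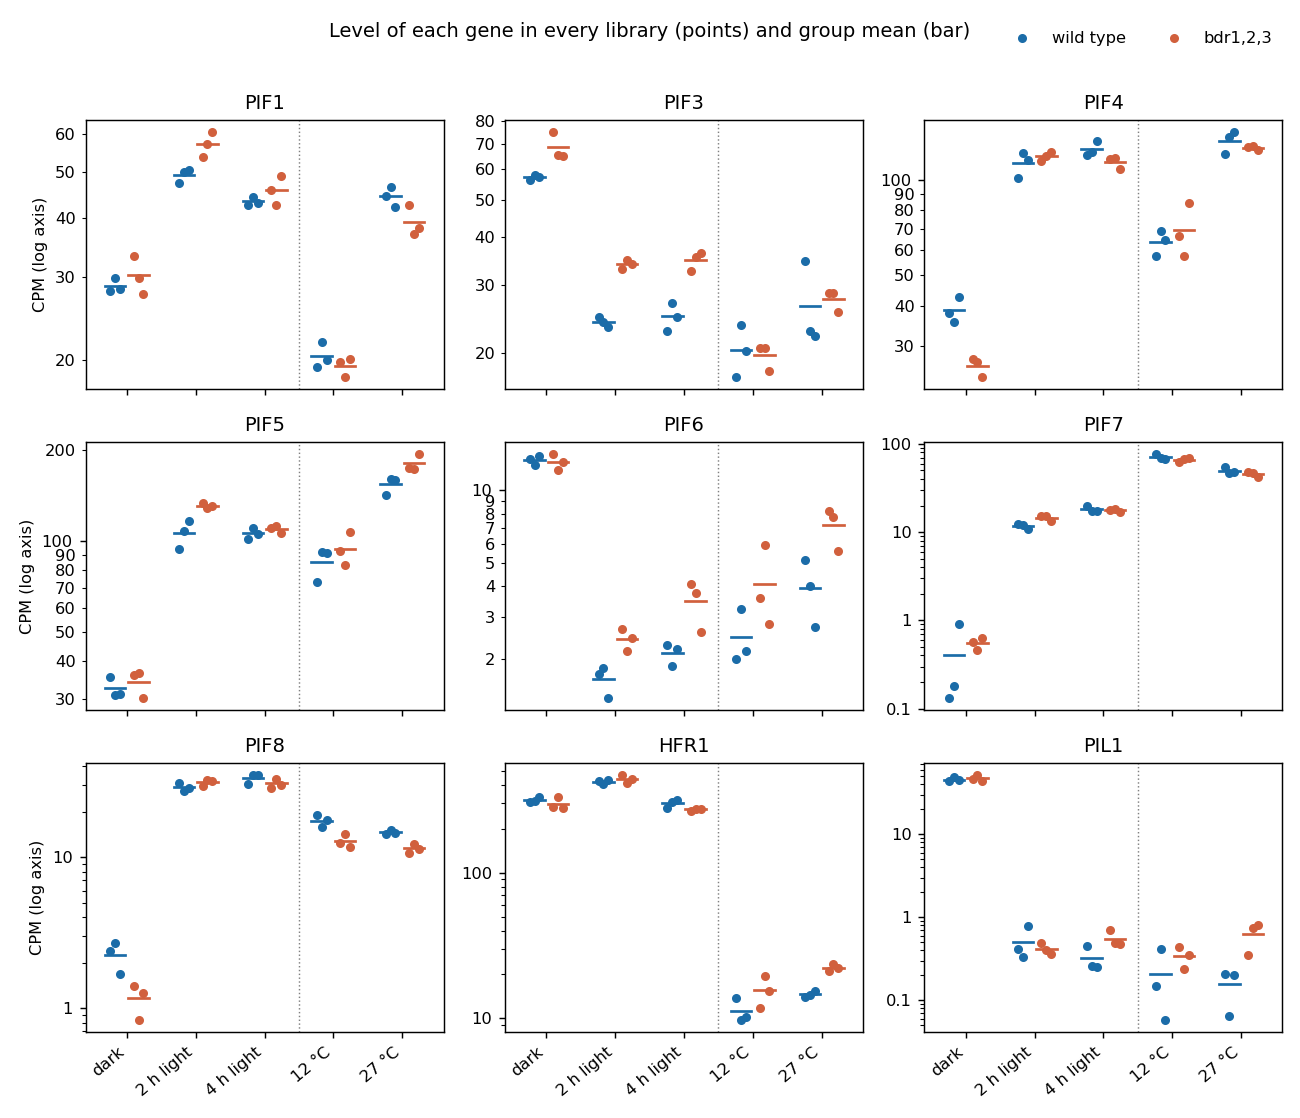
CPM of each of the 9 genes in every library (points, logarithmic vertical axis) with the mean of 3 libraries (bar), for wild type and bdr1,2,3, in the dark, after 2 h and 4 h of light, at 12 °C and at 27 °C. PIF4, PIF5, PIF7 and PIF8 each lie lowest in the dark, and PIF3, PIF6 and PIL1 each lie highest there. PIL1 stays below 1 CPM in every light-grown or light-treated library.

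The mutant showed the same directions. In bdr1,2,3 all 9 genes passed at 2 h, 6 higher and 3 lower (33.9% and 33.8% of all genes), and 8 of 9 passed at 4 h, 5 higher and 3 lower (35.9% and 34.1%). The log2 fold changes at 2 h were 4.70 for PIF7, 4.69 for PIF8, 2.19 for PIF4, 1.93 for PIF5, 0.91 for PIF1, 0.55 for HFR1, -1.01 for PIF3, -2.45 for PIF6 and -6.79 for PIL1. HFR1 at 4 h was at -0.13 ± 0.0743 (adjusted p = 0.114), and it passed without dark bdr1,2,3 replicate 3 (-0.18, adjusted p = 0.0433). These comparisons rest on dark libraries of their own genotype, and the 2 h and 4 h comparisons of a genotype share them.

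Between 2 h and 4 h of light fewer of the 9 genes passed. In wild type 3 of 9 genes passed, PIF7 higher and HFR1 and PIF1 lower, where 23.4% of all genes were higher and 22.6% lower. PIF7 rose by 0.63 ± 0.137 on the log2 scale (adjusted p = 0.000593) and HFR1 fell by 0.50 ± 0.0742 (adjusted p = 6.51e-06). PIF1 fell by 0.18 ± 0.0738 (adjusted p = 0.0446), but this call was lost whichever 1 of the 6 libraries compared was left out (adjusted p between 0.0565 and 0.143) and with DESeq2 (adjusted p = 0.106). PIF4 passed without wild-type 2 h replicate 2 (adjusted p = 0.0492) and PIF8 without wild-type 4 h replicate 1 (adjusted p = 0.0378). In bdr1,2,3 4 of 9 passed, PIF6 higher and HFR1, PIF1 and PIF5 lower (22.5% and 19.3% of all genes). HFR1 fell by 0.69 ± 0.0744 (adjusted p = 7.16e-08), PIF1 by 0.32 ± 0.0727 (adjusted p = 0.000841) and PIF5 by 0.25 ± 0.0743 (adjusted p = 0.00801). PIF6 rose by 0.56 ± 0.174 (adjusted p = 0.0112), with overlapping libraries, and the call was lost with DESeq2 (adjusted p = 0.0546) and without mutant 2 h replicate 2 (0.0688), 4 h replicate 1 (0.0762) or 4 h replicate 2 (0.0558).

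**Figure D3:**
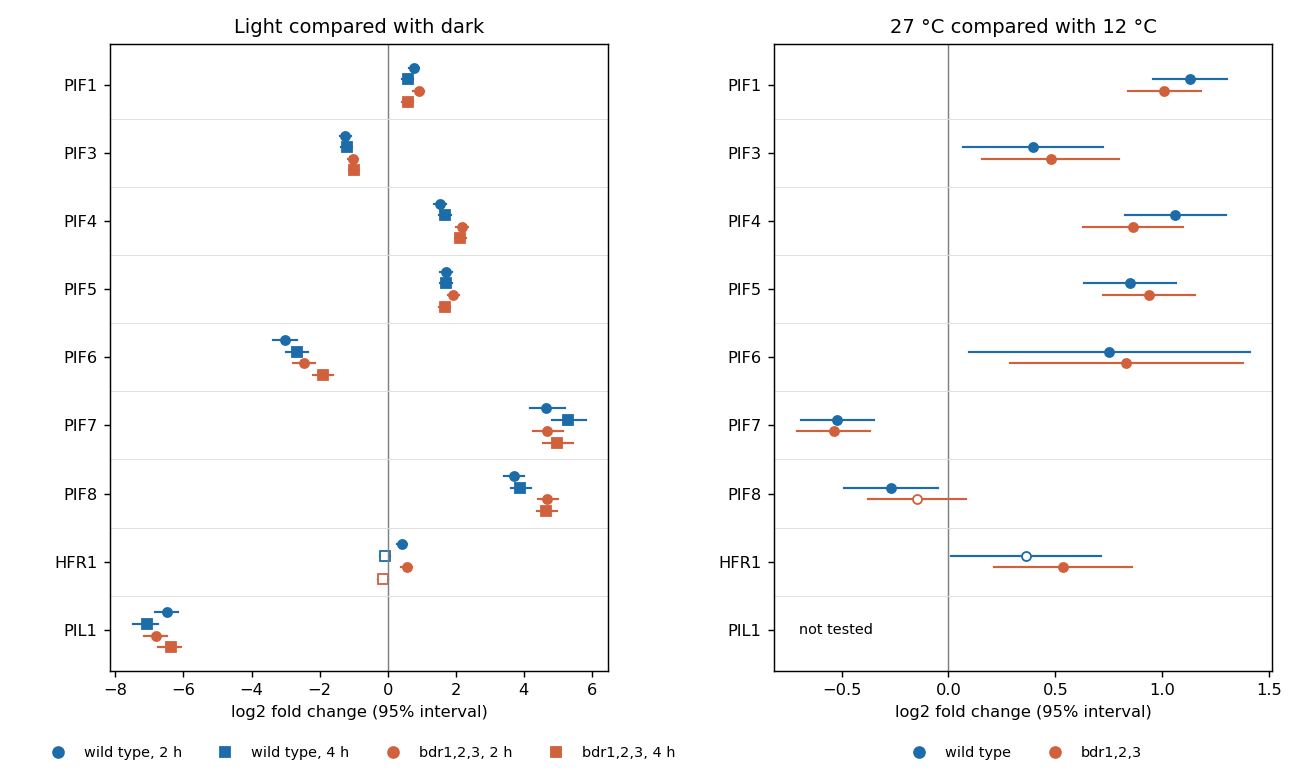
Log2 fold change of each gene with its 95% interval (horizontal axis) for light against dark (left) and 27 °C against 12 °C (right), in wild type and bdr1,2,3. Filled symbols passed the test (edgeR, adjusted p under 0.05) and open ones did not. PIF7 and PIF8 lie farthest right in light and PIL1 farthest left, while on warming PIF1 (1.13 in wild type) lies at the right and PIF7 (-0.52) at the left.

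In the dark, PIF4 and PIF8 were lower and PIF3 was higher in bdr1,2,3. These 3 of 9 genes passed, 1 higher and 2 lower, where 8.04% of all genes were higher and 11.3% lower in bdr1,2,3. PIF4 was at 27.1, 26.6 and 24.0 CPM in the mutant, all below the wild-type libraries at 37.9, 35.6 and 42.7 CPM. Its log2 fold change was -0.58 ± 0.0852 (adjusted p = 2.72e-05). PIF8 was at 1.40, 0.839 and 1.27 CPM against 2.37, 2.70 and 1.67 CPM, without overlap, and its log2 fold change was -0.87 ± 0.226 (adjusted p = 0.00749). This call was lost without dark wild-type replicate 2 (-0.69, adjusted p = 0.121), without dark mutant replicate 2 (-0.71, adjusted p = 0.0538) and when the dark groups alone were fitted (adjusted p = 0.061). PIF3 was at 74.9, 65.4 and 65.2 CPM against 56.5, 58.1 and 57.2 CPM, a log2 difference of 0.26 ± 0.0701 (adjusted p = 0.00997), and the call was lost without mutant replicate 1, the highest library (0.19, adjusted p = 0.0811). The other 6 genes differed by between -0.09 (HFR1) and 0.29 (PIF7) on the log2 scale, and the interval of PIF7 was wide (-0.60 to 1.18). The epidermal marker ATML1 was also higher in the dark mutant, by 0.23 ± 0.0658 (adjusted p = 0.0151). The seed markers CRA1 and OLEO1 summed to 2.05 to 19.9 CPM in the dark mutant libraries and to 0.27 to 2.76 CPM in the wild-type ones. The root markers summed to 10.2 to 33.2 CPM against 4.61 to 14.0 CPM. The 1 seed and 1 root marker tested did not pass in this comparison. The part of these markers in the values was not tested.

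In light, PIF3 was higher in bdr1,2,3 at both times. After 2 h it was at 33.0, 35.0 and 34.2 CPM in the mutant and at 24.9, 24.1 and 23.4 CPM in wild type, and after 4 h at 32.7, 35.5 and 36.5 CPM against 22.9, 27.1 and 24.9 CPM. The mutant libraries lay above all wild-type ones, with log2 fold changes of 0.50 ± 0.0777 (adjusted p = 4.41e-05) and 0.48 ± 0.0777 (adjusted p = 7.56e-05). At 2 h 3 of 9 genes passed, all higher (8.67% of all genes higher and 10.6% lower). PIF5 was at 133.0, 128.8 and 130.7 CPM in the mutant, above the wild-type libraries at 93.9, 107.9 and 115.9 CPM (log2 fold change 0.31 ± 0.0744, adjusted p = 0.00466). PIF1 differed by 0.22 ± 0.0723 (adjusted p = 0.0373). That call was lost whichever 1 of the 3 wild-type libraries was left out (adjusted p between 0.0698 and 0.12) and without mutant replicates 2 (0.0951) or 3 (0.168). PIF7 differed by 0.32 (adjusted p = 0.114), and it passed when the 2 h groups alone were fitted (0.34, adjusted p = 0.0276).

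At 4 h 2 of 9 genes passed, both higher in the mutant (7.86% of all genes higher and 8.67% lower). Besides PIF3, PIF6 was at 4.08, 3.75 and 2.60 CPM in bdr1,2,3 against 2.28, 1.88 and 2.19 CPM in wild type, a log2 fold change of 0.74 ± 0.180 (adjusted p = 0.00482). AT3G62080, which overlaps part of PIF6, differed by -0.04 there (adjusted p = 0.835). The long non-coding RNA AT3G09745, which covers most of PIF6, was not counted, and its part in the PIF6 value was not tested. When the 4 h groups alone were fitted PIF6 was at adjusted p = 0.0502. Libraries of the same number deviated together at 4 h, and with the replicate number as a block in those groups PIF3 (adjusted p = 8.98e-07) and PIF6 (adjusted p = 0.0117) passed, as 5473 genes did in place of 3227. PIF4, which was lower in the dark mutant, differed by 0.07 at 2 h (95% interval -0.08 to 0.22) and by -0.13 at 4 h (-0.28 to 0.02). At 4 h the mutant libraries of PIF4 all lay below the wild-type ones, although the difference did not pass (adjusted p = 0.26). PIF8 differed by 0.12 and -0.11, HFR1 by 0.05 and -0.14, and PIL1 remained near the detection limit in both genotypes. The leaf marker LHCB1.1 was lower in the mutant at 2 h (-0.46) and 4 h (-0.43), as was RBCS1A at 2 h (-0.35 ± 0.103, adjusted p = 0.0186), and their part in these values was not tested.

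The light response of PIF4 was larger in the mutant than in wild type. The difference between the genotypes in the change from dark to 2 h was 0.65 ± 0.113 on the log2 scale (adjusted p = 0.00207), that is 2.19 in bdr1,2,3 against 1.54 in wild type. For PIF8 it was 0.99 ± 0.245 (adjusted p = 0.0325), 4.69 against 3.70. These 2 of 9 genes passed, both with a larger rise in the mutant, where 1.1% of all genes had a positive and 0.743% a negative difference at 2 h. At 4 h 1 of 9 passed, PIF4 with 0.45 ± 0.113 (adjusted p = 0.0358), where the shares were 0.999% and 1.07%. This call at 4 h was lost with the replicate number as a block (adjusted p = 0.0514), with the compared groups alone (0.0607) and with both (0.0959). PIF4 and PIF8 are also the genes that were lower in the dark mutant, and each of these differences uses the same dark libraries, so they are not separate observations.

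The PIF4 difference at 2 h passed whichever 1 library was left out. That of PIF8 at 2 h was lost without dark wild-type replicates 1 (adjusted p = 0.0979) or 2 (0.214), wild-type 2 h replicates 2 (0.0659) or 3 (0.0558), dark mutant replicate 2 (0.0926) and mutant 2 h replicates 2 (0.0669) or 3 (0.0599). That of PIF4 at 4 h was lost without dark wild-type replicates 1 (0.067) or 3 (0.123), wild-type 4 h replicates 1 (0.0733) or 2 (0.0846), dark mutant replicates 2 (0.0648) or 3 (0.0677) and mutant 4 h replicates 1 (0.069) or 2 (0.0816). PIF8 at 4 h (0.76, adjusted p = 0.119) passed without dark wild-type replicate 3 (0.0481), and PIF6 at 4 h (0.76, adjusted p = 0.076) without mutant 4 h replicate 3 (0.0355).

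**Figure D4:**
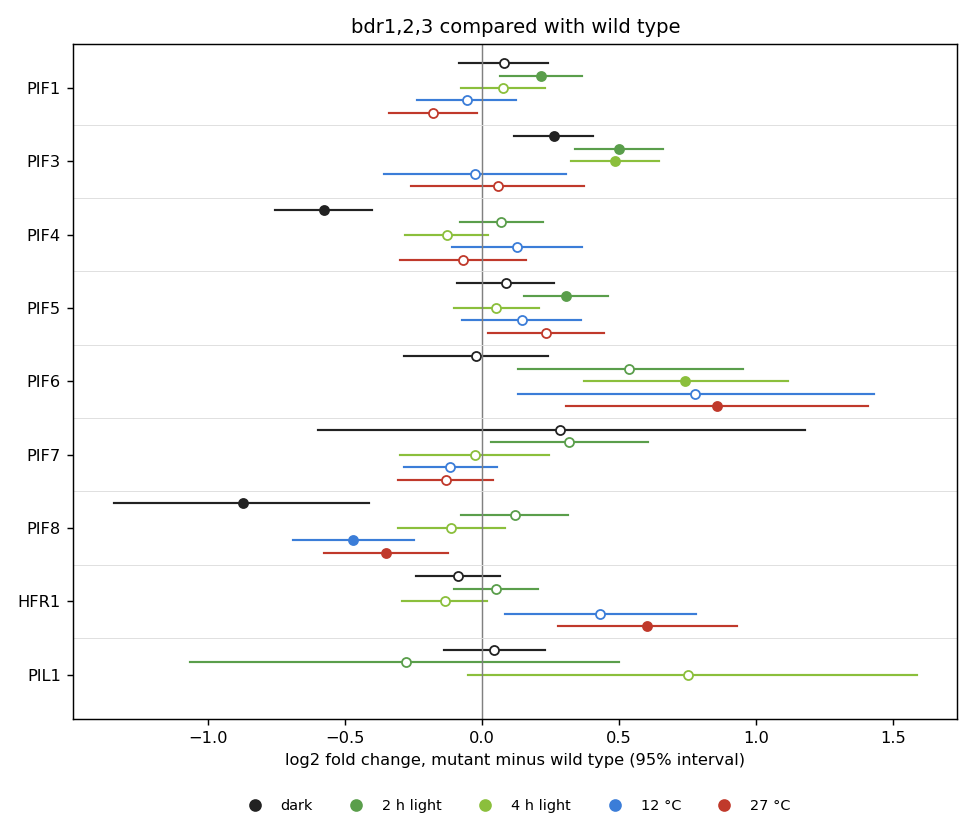
Log2 fold change of bdr1,2,3 against wild type with its 95% interval (horizontal axis) for each gene in the dark, after 2 h and 4 h of light, at 12 °C and at 27 °C. Filled symbols passed the test (edgeR, adjusted p under 0.05). PIF4 passed as lower in the mutant in the dark (-0.58), PIF3 is higher in the dark and in light (0.26, 0.50 and 0.48), and PIF8 is lower in the dark, at 12 °C and at 27 °C (-0.87, -0.47 and -0.35). PIL1 was not tested at 12 °C or 27 °C.

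Warming raised PIF1, PIF4 and PIF5 in both genotypes and lowered PIF7. In wild type 7 of the 8 genes tested passed, 5 higher and 2 lower (29.3% and 28.5% of the 19473 genes tested). PIF1 was at 19.3, 21.8 and 20.0 CPM at 12 °C and at 44.5, 46.5 and 42.1 CPM at 27 °C, a log2 fold change of 1.13 ± 0.0822 (adjusted p = 4.66e-09). PIF4, the main PIF of warmth responses, was at 57.7, 68.9 and 64.5 CPM at 12 °C and at 120.1, 136.2 and 140.9 CPM at 27 °C. PIF5 went from 73.3, 91.8 and 91.2 CPM to 141.5, 160.2 and 159.1 CPM. None of these groups overlapped, and the log2 fold changes were 1.06 ± 0.112 for PIF4 (adjusted p = 5.36e-07) and 0.85 ± 0.103 for PIF5 (adjusted p = 2.16e-06).

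Some markers moved with temperature as well. The leaf markers summed to 10116 to 11779 CPM at 12 °C and to 7168 to 7657 CPM at 27 °C in wild type, and to 11472 to 14088 and 7103 to 8100 CPM in the mutant. RBCS1A fell in wild type (by 0.79 on the log2 scale) and in the mutant (by 0.84). LHCB1.1 fell in the mutant (by 0.51) but did not pass in wild type, where the median of the 2 leaf markers was -0.25. The difference between the genotypes in this response passed for 1 of the 2 leaf markers, as a lower value in the mutant. The root nitrate transporter gene NRT2.1 fell by 3.99 and 5.00, and it was the 1 of 3 root markers tested that passed in each genotype. The seed storage gene CRA1 rose in the mutant by 0.71, as the 1 of 2 seed markers that passed there, and 0 of 2 passed in wild type. The part of these markers in the values of the PIF genes was not tested.

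PIF7 was at 77.2, 68.9 and 68.3 CPM at 12 °C and at 54.5, 47.1 and 48.1 CPM at 27 °C in wild type. It fell by 0.52 ± 0.0815 on the log2 scale (adjusted p = 3.42e-05), opposite to PIF4, with which it shares a role in warmth. The other 3 wild-type calls lay close to the threshold. PIF3 changed by 0.40 ± 0.154 (adjusted p = 0.0382), PIF6 by 0.75 ± 0.309 (adjusted p = 0.0472) and PIF8 by -0.27 ± 0.104 (adjusted p = 0.0349), and the libraries of PIF3 and PIF6 overlapped between temperatures. PIF3 was at 34.6 CPM in replicate 1 at 27 °C against 22.9 and 22.1 CPM in the others, and without that library its change was 0.16 (adjusted p = 0.234). The PIF3 call was also lost without 12 °C replicates 1 (0.163) or 3 (0.0949). The PIF6 call was lost without 12 °C replicates 1 (0.154) or 3 (0.155) and without 27 °C replicates 1 (0.175) or 2 (0.0919), and the PIF8 call without 12 °C replicates 1 (0.149) or 3 (0.0779), with any 1 of the 27 °C libraries left out (0.0534 to 0.0761) and with DESeq2 (0.0709). HFR1 was at 13.8, 9.78 and 10.2 CPM at 12 °C and at 14.1, 14.4 and 15.5 CPM at 27 °C (log2 fold change 0.36 ± 0.165, adjusted p = 0.0714), and passed without 12 °C replicate 1 (0.54, adjusted p = 0.0166).

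In bdr1,2,3 7 of 8 genes passed on warming, 6 higher and 1 lower (29.4% and 31.2% of all genes). PIF1 rose by 1.01 ± 0.0812 (adjusted p = 1.43e-08), PIF5 by 0.94 ± 0.102 (adjusted p = 5.57e-07), PIF4 by 0.86 ± 0.110 (adjusted p = 4.23e-06) and HFR1 by 0.54 ± 0.153 (adjusted p = 0.00648). PIF7 fell by 0.54 ± 0.0818 (adjusted p = 2.3e-05). PIF6 rose by 0.83 ± 0.257 (adjusted p = 0.0107), with overlapping libraries, and PIF3 by 0.48 ± 0.151 (adjusted p = 0.0126). The PIF6 call was lost without 12 °C mutant replicate 1 (0.0525) and the PIF3 call without 12 °C mutant replicate 3 (0.053). PIF8 was at -0.15 ± 0.108 (adjusted p = 0.25). The difference between the genotypes in the response to warming passed for 0 of 8 genes with edgeR (0.488% of all genes positive and 0.529% negative), 0 had an unadjusted p under 0.05, and 0 passed with DESeq2. For PIF4 this difference was -0.20, with a 95% interval of -0.53 to 0.13, and for PIF7 it was -0.02 (-0.26 to 0.23).

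PIF8 was lower in bdr1,2,3 at both temperatures. At 12 °C it was at 12.4, 14.2 and 11.6 CPM in the mutant and at 18.9, 15.8 and 17.6 CPM in wild type, and at 27 °C at 10.7, 12.3 and 11.4 CPM against 14.2, 15.1 and 14.4 CPM. The mutant libraries lay below all wild-type ones, with log2 fold changes of -0.47 ± 0.105 (adjusted p = 0.00623) and -0.35 ± 0.108 (adjusted p = 0.0291). At 12 °C PIF8 was the 1 of 8 genes that passed, lower in the mutant, where 4.57% of all genes were higher and 6.36% lower. HFR1 at 12 °C (0.43 ± 0.164, adjusted p = 0.11) passed without wild-type replicate 1 (adjusted p = 0.0399) and without mutant replicate 1 (adjusted p = 0.0122). LHCB1.1 was higher in the mutant at 12 °C (0.67 ± 0.126, adjusted p = 0.00185), and its part in these values was not tested.

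At 27 °C 3 of 8 genes passed, 2 higher and 1 lower in the mutant (8.53% and 10.9% of all genes). HFR1 was at 21.2, 23.4 and 22.3 CPM in bdr1,2,3, above the wild-type libraries at 14.1, 14.4 and 15.5 CPM, a log2 fold change of 0.60 ± 0.154 (adjusted p = 0.0106). PIF6 was at 8.18, 7.74 and 5.62 CPM against 5.12, 4.02 and 2.72 CPM, so that the log2 fold change was 0.86 ± 0.260 (adjusted p = 0.0286). The PIF6 call was lost without wild-type replicates 2 (0.0792) or 3 (0.0923) and mutant replicates 1 (0.107) or 2 (0.0826), and the PIF8 call without wild-type replicates 2 (0.102) or 3 (0.0769), without mutant replicates 1 (0.115) or 3 (0.0813) and with DESeq2 (0.0815). PIL1 did not pass the filter on low counts here, with 3, 1 and 3 counts in wild type and 5, 8 and 11 counts in the mutant at 27 °C. Pooled over libraries PIL1 was 3.98-fold higher in the mutant (95% counting interval 1.66 to 10.9), and at 12 °C the ratio was 2.28 (0.868 to 7.02). The seed storage gene CRA1 was higher in the mutant at 12 °C (1.31, adjusted p = 0.0178) and at 27 °C (2.38, adjusted p = 9.49e-05), the seed markers CRA1 and OLEO1 summed to 8.67 to 10.4 CPM in the mutant and 1.18 to 3.17 CPM in wild type at 27 °C, and their part in these values was not tested.

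Genes whose proteins act on PIFs mostly fell in light. They were 27 genes, among them the phytochromes, the kinases and ubiquitin ligase subunits that lead to PIF turnover, DELLA proteins and bHLH partners. In wild type 5 were higher and 17 lower at 2 h (median log2 fold change -0.54), where 33.9% of all genes were higher and 32.9% lower, and 6 were higher and 19 lower at 4 h (median -0.90), where the shares were 35.2% and 34.9%. In bdr1,2,3 6 were higher and 18 lower at 2 h (33.9% and 33.8% of all genes) and 6 higher and 20 lower at 4 h (35.9% and 34.1%). PHYA, the phytochrome of etiolated seedlings, fell by 2.33 at 2 h in wild type, while PHYB, the main red light receptor, rose by 0.95 and COP1, an E3 ligase that acts in the dark, rose by 1.21. PAR1, which binds PIFs without binding DNA, fell by 3.79, the DELLA gene GAI by 2.31 and the ubiquitin ligase subunit genes LRB1 and LRB2 by 1.61 and 1.72. On warming 5 of 26 were higher and 14 lower in wild type (29.3% and 28.5% of all genes) and 5 higher and 12 lower in the mutant (29.4% and 31.2%). AT2G16365, which encodes the phyB-binding protein PCH1, fell by 1.74 in wild type.

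In bdr1,2,3 compared with wild type 2 of these 27 genes were higher and 4 lower in the dark (8.04% and 11.3% of all genes), 7 higher and 1 lower at 2 h (8.67% and 10.6%), and 2 higher and 1 lower at 4 h (7.86% and 8.67%). Of 26 tested, 2 were higher and 1 lower at 12 °C (4.57% and 6.36%) and 4 higher and 2 lower at 27 °C (8.53% and 10.9%). In the dark the counts were near the shares over all genes. PHYE, a minor phytochrome, was lower in the mutant in light and at both temperatures. PHYE was at 47.3, 60.4 and 59.5 CPM in wild type and 24.5, 25.7 and 28.3 CPM in the mutant after 2 h, and at 40.8, 42.8 and 42.1 CPM against 12.4, 13.9 and 8.51 CPM after 4 h. The log2 fold changes were -1.09 ± 0.113 (adjusted p = 2.82e-07) and -1.81 ± 0.126 (adjusted p = 5.61e-10), and they were -1.26 at 12 °C and -1.81 at 27 °C, but 0.06 in the dark (adjusted p = 0.782). PHYE transcripts therefore rose at 2 h in wild type (0.70) and fell in the mutant (-0.45). HEC2, a bHLH partner of PIFs, was higher in the mutant in the dark (adjusted p = 2.9e-05), at 2 h (1.33) and at 4 h (0.96), and its relative HEC1 at 2 h (0.36), 12 °C (0.98) and 27 °C (1.22).

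Genes that PIFs activate fell in light, and genes that PIFs repress in the dark rose. Of 10 activated genes 9 were tested (YUC9 was too low), and all 9 fell at 2 h and 4 h in both genotypes, where 32.9% to 34.9% of all genes were lower, with medians of -2.82 and -3.37 in wild type and -2.23 and -2.85 in bdr1,2,3. In wild type at 2 h the cell wall gene XTH15 fell by 5.49, the homeobox gene ATHB2 by 4.61, the auxin response gene IAA19 by 2.76 and the auxin synthesis gene YUC8 by 1.37. All 8 repressed genes rose at 2 h in both genotypes, where 33.9% of all genes were higher in each, with medians of 3.88 and 3.98. The photosystem gene LHCA1 rose by 6.32 and the chlorophyll synthesis gene PORC by 4.99 in wild type. At 4 h 7 of 8 were higher and GLK1, a regulator of chloroplast development, was lower (-0.66) in wild type (35.2% and 34.9% of all genes). In the mutant 7 were higher (35.9% of all genes) and GLK1 was at 0.17. Both lists were chosen with earlier results of these data known, so these counts describe the listed genes and are not an independent test.

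In the mutant the activated genes IAA19 and YUC8 were higher than in wild type in light. IAA19 was at 39.5, 41.9 and 43.8 CPM after 2 h in bdr1,2,3 and at 22.1, 20.9 and 22.2 CPM in wild type (log2 fold change 0.94 ± 0.0780, adjusted p = 3.06e-09), and by 4 h the difference was 0.60 ± 0.0874 (adjusted p = 2.27e-05). YUC8 differed by 0.35 ± 0.115 (adjusted p = 0.0355) and 0.36 ± 0.122 (adjusted p = 0.0462). These were the 2 of 9 activated genes that passed at each time (8.67% of all genes were higher at 2 h and 7.86% at 4 h), and in the dark 2 of 9, CKX5 and ST2A, were lower (11.3%). Among the 8 repressed genes 5 were lower in the dark mutant (11.3% of all genes), 6 at 2 h (10.6%) and 4 at 4 h (8.67%), with medians of -0.44, -0.36 and -0.24. The medians over all genes tested were -0.01, -0.02 and 0.01.

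On warming 5 of 9 activated genes were higher and 1 lower in wild type (29.3% and 28.5% of all genes). Their median log2 fold change there was 0.65, against 0.0018 over all genes tested. In the mutant 3 were higher and 2 lower (29.4% and 31.2%), near the shares over all genes, with a median of 0.13. XTH15 rose by 2.92 and YUC8 by 1.15 in wild type, together with PIF4 and PIF5, whereas FHL, which carries phytochrome A into the nucleus, fell by 1.46. Of the 8 repressed genes 4 were higher in wild type, and 4 were higher and 3 lower in the mutant. At 27 °C ST2A was the 1 activated gene that was higher in bdr1,2,3 (0.88 ± 0.214, adjusted p = 0.00706). At 12 °C 1 repressed gene was higher and 1 lower in the mutant (4.57% and 6.36% of all genes), and at 27 °C 2 were higher and 2 lower (8.53% and 10.9%).

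**Figure D5:**
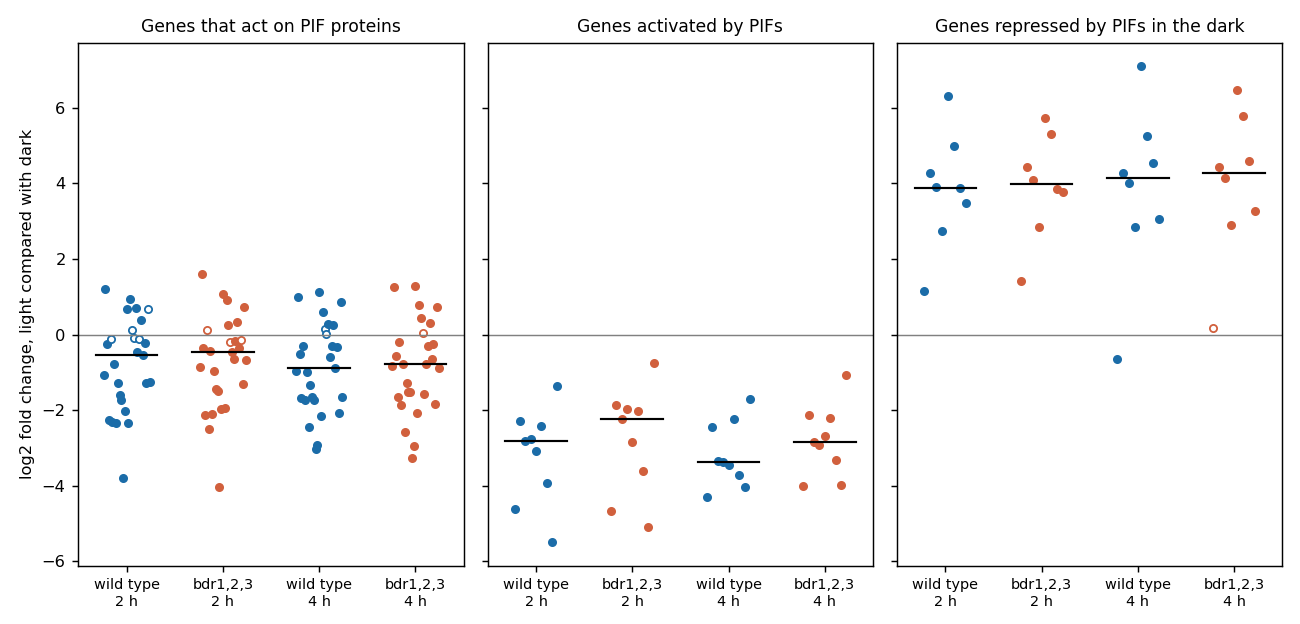
Log2 fold change in light against dark (vertical axis) of 27 genes whose proteins act on PIFs, 9 genes that PIFs activate and 8 genes that PIFs repress in the dark, at 2 h and 4 h in wild type and bdr1,2,3. Each point is a gene, filled where it passed the test (edgeR, adjusted p under 0.05), and bars are medians. All activated genes lie below 0 and, at 2 h, all repressed genes lie above it.

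The transcripts whose levels followed each member most closely were found by Pearson correlation of log2 CPM over the 18 photomorphogenesis libraries, which share the light treatments, so that any gene with a strong light response can score high. PIF4 was closest to HCF107 (r = 0.995) and CSLB04 (r = 0.995), and PIF8 to FADA (r = 0.997) and TZP (r = 0.995). PIF5 was closest to RUP1 (r = 0.994), PIF7 to AT5G63380 (r = 0.990), PIF6 to AT1G13210 (r = 0.984), PIF3 to AT2G04500 (r = 0.985), PIF1 to AT5G65990 (r = 0.979) and PIL1 to AT4G22810 (r = 0.995). HFR1, which rose and returned, had the lowest best match (TIP2;3, r = 0.942). In the 12 heat shock libraries, which share the temperature treatments, r ranged widely for the same pairs. It was 0.780 for PIF4 with HCF107 and 0.955 with CSLB04, 0.893 for PIF7 with AT5G63380, 0.641 for PIF5 with RUP1, 0.659 for PIF8 with TZP and 0.477 for HFR1 with TIP2;3. It was 0.273 for PIF1 with AT5G65990, -0.159 for PIF8 with FADA and -0.675 for PIF6 with AT1G13210. Among second-closest transcripts, it was -0.942 for PIF5 with AT5G64850 (r = 0.993 in the photomorphogenesis libraries) and -0.887 for PIF1 with WAVH2 (0.978 there). It was 0.816 for PIF7 with ABC1, 0.739 for PIF6 with TPS10, 0.504 for HFR1 with DAW1 and 0.206 for PIF3 with AT4G30410. It was not computed for PIF3 with AT2G04500 or for the pairs of PIL1.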

How the data were processed

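RNA was measured in seedlings with a stranded mRNA kit, 30 libraries in 10 groups of 3. The deposited values used here are raw read counts per gene, which the authors made with STAR 2.5.2b, SAMtools 1.3.1 and featureCounts on TAIR10, per the submitters' processing notes. Files of counts normalized by the authors were not used, and 0 columns of other series were present. From the counts, CPM was computed with TMM effective library sizes, for each experiment on its own. Tests used edgeR 4.0.16 (filterByExpr, robust glmQLFit, glmQLFTest) over all genes of an experiment, with 1 coefficient per group and Benjamini-Hochberg adjustment over all genes tested, and a threshold of 0.05. They gave 16 comparisons. The test scripts were tested on simulated data. R 4.3.3 and Python 3.11.15 were used.

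Lengths, coordinates and sequences came from RefSeq TAIR10.1, matched by locus, a release whose gene ends need not be those of TAIR10. All 9 genes were named in every comparison, along with list genes and the best-correlated genes. The members and lists were chosen with earlier results of these data known. Alternatives were RLE scaling, DESeq2 1.42.0, no filter on low counts, the replicate number as a block, the compared groups alone, a fold change minimum of 1.5 and leaving out each replicate. The fit of the compared groups with a block was added after seeing the data. Calls of single genes were followed under the alternatives for the 9 genes, and not for the list genes.

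The labels name 3 plates per condition but do not tie libraries to plates, so p-values measure only the spread between these samples, which may be technical. Replicates differed beyond sampling noise (chi-square per degree of freedom 1.98 to 14.7). Depth was 6823975 to 22888978 counts per library, and counting intervals cover counting error alone. Replicate numbers were checked as pairs by the correlation of deviations from group means. At 4 h of light the wild-type and mutant libraries of the same number correlated at 0.63, 0.407 and 0.187, so those numbers were taken to pair the libraries, from the data and not the labels. No other comparison had 3 correlations above 0.1.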

Additional observations from a re-analysis of the deposited data

Results flagged for a closer look

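The genotypes differed in their response to light, by the test of that difference (edgeR, adjusted p under 0.05), for PIF4 at 2 h (0.649 on the log2 scale, mutant minus wild type) and 4 h (0.4494) and for PIF8 at 2 h (0.9918). Of 19 alternatives the call of PIF8 at 2 h was lost under 10, that of PIF4 at 4 h under 12 and that of PIF4 at 2 h under 1, the fold change minimum. Among the genes whose proteins act on PIFs the response differed for PHYE at 2 h (-1.148, adjusted p = 0.000289) and 4 h (-1.863, adjusted p = 1.7e-06) and for COP1 at 2 h (0.3791, adjusted p = 0.0418). Among the genes that PIFs activate it differed for IAA19 at 2 h (0.7894, adjusted p = 6.46e-05) and 4 h (0.4462, adjusted p = 0.0317) and for YUC8 at 2 h (0.6231, adjusted p = 0.0328) and 4 h (0.6341, adjusted p = 0.0358). Among the genes that PIFs repress it differed for GLK1 at 4 h (0.8267, adjusted p = 0.0413), and GUN4, a chlorophyll synthesis gene, differed in its response to warming (-0.5129, adjusted p = 0.0477). All light values share the dark libraries of both genotypes. Whether the calls of PHYE, COP1, IAA19, YUC8, GLK1 and GUN4 hold under the alternatives was not tested. The adjusted p of COP1, YUC8, GLK1 and GUN4 were no lower than that of PIF8 at 2 h (0.0325), a call that was often lost.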

How the results depend on the processing

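Of 139 tests of the 9 genes 70 passed, 36 of these under every alternative, and 34 were lost under at least 1, 19 of them under the fold change minimum alone. Of the calls 0 changed sign. With a fold change minimum of 1.5 the number of the 9 genes that passed fell to 0 for 4 h against 2 h in wild type (from 3) and bdr1,2,3 (from 4), for the genotypes in the dark (from 3), at 2 h (from 3), at 4 h (from 2), at 12 °C (from 1) and at 27 °C (from 3), and for the genotype difference in the light response at 2 h (from 2) and 4 h (from 1), and to 3 on warming in each genotype (from 7). With the compared groups alone it was 1 for the genotypes at 4 h and 0 for the difference in light response at 4 h. With the replicate block the difference in light response passed for 1 gene at 2 h and 0 at 4 h, and the same with the block in the compared groups alone, where 4 passed on warming in wild type. PIF5 in wild type between 2 h and 4 h turned from 0.00029 to -0.0001135 with the replicate block, and PIF7 in the genotype difference on warming from -0.02 to 0.00321 with RLE scaling and 0.004884 with DESeq2. In fits of all groups the block ended the calls of PIF1 between 2 h and 4 h in wild type (adjusted p = 0.0585) and between the genotypes at 2 h (0.0524), of PIF8 in the light response at 2 h (0.0537) and of PIF4 at 4 h (0.0514), and it changed no other call of the 9 genes. Outside the 4 h genotype comparison the libraries share only a number, although in the dark genotype comparison and on warming in the mutant each library correlated best with its own number. The causes were not tested.

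Leaving out 1 replicate at a time, 1 to 2 genes passed for the difference in light response at 2 h, 0 to 2 at 4 h, 4 to 7 for warming in wild type, 1 to 2 for the genotypes at 12 °C and 1 to 4 at 27 °C. Values that did not pass turned in sign as follows. Between 2 h and 4 h in wild type PIF5 ranged from -0.06839 to 0.07889 and PIF3 from -0.0163 to 0.1064, and in the mutant PIF8 from -0.09231 to 0.002994. Between the genotypes in the dark PIF7 ranged from -0.128 to 1.733, PIF6 from -0.08323 to 0.03214, PIF1 from -0.003654 to 0.1408 and PIL1 from -0.01841 to 0.09841. At 2 h PIF4 ranged from -0.004312 to 0.1285 and PIL1 from -0.5032 to 0.1439, and at 4 h PIF7 from -0.05823 to 0.03182. For the difference in light response at 2 h PIF7 ranged from -1.415 to 0.4459 and PIL1 from -0.5478 to 0.09455, and at 4 h PIF1 from -0.06614 to 0.07875, PIF7 from -1.76 to 0.1006, PIF5 from -0.114 to 0.008919 and HFR1 from -0.1027 to 0.03481. At 12 °C PIF3 ranged from -0.1296 to 0.06455 and PIF4 from -0.02947 to 0.243, and at 27 °C PIF3 from -0.04083 to 0.2928. For the difference on warming HFR1 ranged from -0.0168 to 0.3652, PIF6 from -0.1091 to 0.3905, PIF7 from -0.07828 to 0.05106 and PIF3 from -0.0141 to 0.3149.

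Over all genes the difference in light response was called for 360 genes at 2 h (218 to 234 without dark wild-type replicate 1, wild-type 2 h replicate 2 or mutant 2 h replicate 2) and 404 at 4 h (205 without dark wild-type replicate 2, and 249 with the compared groups and a block), and the difference on warming for 198 (42 without 12 °C wild-type replicate 3, 354 without 27 °C wild-type replicate 1). The genotypes at 12 °C differed for 2129 genes and for 1293 without wild-type replicate 3. Other scalings moved the median of all genes by at most 0.0252 (log2), and raw library totals moved group levels by 0.955 to 1.04 times. PIF7 in the dark and PIL1 outside it are limited by counts of 1 to 13.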
